A study of Mus musculus with 4 samples.

Results

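T cells of mouse liver whose rearranged gamma chain used the variable segment TRGV2 were taken from a paired single-cell gene expression and T cell receptor series. The cells were chosen by their receptor contigs: a TRGV2 cell had a productive, high-confidence TRG contig with a TRGV2 call and no TRG contig of another V gene, and its barcode lay in the count matrix of the same sort with 300 genes or more and no more than 10% mitochondrial UMIs (unique molecular identifiers). V gene use is therefore a description and not a result. There were 31 such cells among 17509 kept cells of the tdTomato+ library and 285 among 18173 kept cells of the tdTomato- library, 316 of 35682 in all. Cells defined in the same way by TRGV1 (28 tdTomato+ and 660 tdTomato- cells) and TRGV4 (46 and 903) served as comparison.

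The series holds 1 gene expression library and 1 receptor library for each sort of CD45+ (leukocyte) liver cells. All mice carried Stab2-CrexERT2; R26-LSL-tdT (genotype label S2), in which a tamoxifen-inducible Cre driven by the endothelial promoter Stab2 switches on the red reporter tdTomato for good; tamoxifen was given to the mother in mid-gestation and livers were taken at 2 months of age. By this design tdTomato is meant to mark descendants of cells that had Stab2-Cre active in the embryo. Such descent was not tested here for single cells. The library labelled control holds the tdTomato- cells, and no other treatment was listed. The tdTomato+ libraries were batch 1 and the tdTomato- libraries batch 2, so that effects of batch and of sort cannot be told apart, and no label gave the number of mice or tied a cell to an animal. With 1 library a sort no difference could be tested between animals: intervals below are exact 95% intervals (Clopper-Pearson for shares, Poisson or conditional binomial for UMI sums) that cover counting error only, and the 2-fold rule used for genes is a rule of size.

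Gamma-delta T cells are lymphocytes that use a gamma and a delta chain in place of the alpha and beta chains, and they act early in tissues by making interferon-gamma, interleukin-17 or cytotoxic granules. In the mouse, gamma variable segments lie in cassettes, each with its own joining and constant segment, and most variable segments join within their cassette. The CDR3, the stretch across the V to J junction, is shaped by trimming of the germline ends and by bases added during joining, which makes it a tag of cells that share an ancestor only when the sequence is rare.

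The junction sequences below are shown because they carry what differed between the J genes and between the libraries. In the mm10/GRCm38 assembly Trgv2 (ENSMUSG00000076754) lies on chr13:19336573-19337167 on the minus strand and Trgj2 (ENSMUSG00000105830) on chr13:19311245-19311304, also on the minus strand, whereas Trgj4 (ENSMUSG00000098799; chr13:19342152-19342212) and Trgj1 (chr13:19210343-19210402) lie on the plus strand. The germline pieces are the last 17 bases of V from the conserved cysteine codon (chr13:19336573-19336589) and the first 26 bases of Trgj2 (chr13:19311279-19311304) and 27 of Trgj4 (chr13:19342152-19342178), up to the conserved phenylalanine codon. In the CDR3s, capitals mark bases that matched neither germline end.
Trgv2 germline end: tgtgcagtctggatgag
Trgj2 germline start: atagctcgggctttcacaaggtattt
Trgj4 germline start: tcaggcacatcatgggtcaagatattt
TRGJ2, 15 tdTomato- cells: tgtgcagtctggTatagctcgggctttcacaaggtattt
TRGJ2, 6 tdTomato- cells, no added base: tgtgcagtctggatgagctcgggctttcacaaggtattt
TRGJ2, 5 tdTomato- cells: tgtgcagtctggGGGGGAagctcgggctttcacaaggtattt
TRGJ2, 3 tdTomato+ cells and 3 tdTomato- cells: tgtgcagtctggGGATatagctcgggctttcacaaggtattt
TRGJ2, 2 tdTomato+ cells and 4 tdTomato- cells: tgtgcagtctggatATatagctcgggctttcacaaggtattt
TRGJ4, 14 tdTomato- cells, no added base: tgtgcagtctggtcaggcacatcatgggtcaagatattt
TRGJ4, 6 tdTomato- cells: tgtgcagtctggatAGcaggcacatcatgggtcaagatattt

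Trgv2 RNA had a UMI in 31 of 31 tdTomato+ members (median 5 UMIs, 1 to 17) and 282 of 285 tdTomato- members (median 6, 0 to 34). It had one in 0 of 288 and 3 of 321 B cells, defined below and chosen to have no Cd3e, which itself lowers T cell RNA in them. TRGV2 cells made up 26.1% of the 119 tdTomato+ cells with a TRG contig (95% interval 18.4 to 34.9%) and 13.0% of the 2197 tdTomato- cells with one (11.6 to 14.4%). These shares rest on the V calls that chose the cells, and the intervals treat each cell as independent. They are a description, and no difference between the sorts is read from them. They carried the T cell label in RNA: the receptor subunit gene Cd3e had a UMI in 31 of 31 tdTomato+ and 284 of 285 tdTomato- members. Median depth was 11483 UMIs per tdTomato+ member (1719 to 52891) and 7926 per tdTomato- member (1653 to 52454), and the TRGV2 contig rested on a median of 7 and 11 receptor UMIs. In all, 84 barcodes occurred in both matrices, 2 of them tdTomato- members and none tdTomato+, and 2 and 11 further barcodes had TRGV2 beside another V gene and were left out. Endothelial RNA differed between the libraries. The 10 endothelial markers summed to 6254 CPM (UMIs of a gene scaled to the same total in every group) over tdTomato+ members, with a median cell at 2120 CPM and the highest at 21576, against 59.5 CPM over tdTomato- members; 16 of 31 tdTomato+ and 0 of 285 tdTomato- members had more than 0.1% endothelial UMIs. In addition, 1 tdTomato+ member had 349426 CPM of erythroid markers and 1 had 61589 CPM of neutrophil markers. Most hepatocyte markers (Apoa1, Apoc3, Ttr and Serpina1a) and the B cell marker Ms4a1 were at 0 in the tdTomato- members.

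J gene use was counted over all members first. In the tdTomato+ library 31 of 31 TRGV2 cells used TRGJ2, and 0 of 31 used TRGJ4 (exact interval 0 to 11.2%). In the tdTomato- library TRGJ2 was used by 209 of 285 cells (73.3%, 67.8 to 78.4%), TRGJ4 by 71 (24.9%, 20.0 to 30.4%) and TRGJ1 by 5 (1.75%, 0.572 to 4.05%). Without the members whose CDR3 also occurred in a TRGV1 cell of their library, TRGJ4 was used by 0 of 31 tdTomato+ and 18 of 209 tdTomato- members (8.61%, 5.18 to 13.3%), and the intervals of the sorts then overlapped. The neighbouring cells kept mostly to 1 J gene: TRGV1 cells used TRGJ4 in 28 of 28 tdTomato+ and 653 of 660 tdTomato- cells, and TRGV4 cells used TRGJ1 in 45 of 46 and 899 of 903. The constant segment followed the J gene. TRGC2 was called in 29 of the 31 tdTomato+ members and in 196 of the 209 tdTomato- TRGJ2 members, with TRGC1 in the other 2 and 13, while 71 of 71 TRGJ4 members had TRGC4.

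The V call of the TRGJ4 members rested on less evidence than that of the TRGJ2 members. Of the 71 TRGJ4 members, 53 (74.6%, 62.9 to 84.2%) had a CDR3 that also occurred in a TRGV1 cell of the library, and the TRGJ4 sequence with capitals printed above was found in 197 TRGV1 cells. Among the 209 TRGJ2 members 186 had a CDR3 found in no TRGV1 cell, so some were shared there too. TRGV1 cells used TRGJ4 in 653 of 660 cells, so few of them could match a TRGJ2 junction. CDR3 sharing is therefore not compared between the J genes. Counted in the expression library, without correction for gene length, Trgv2 UMIs exceeded Trgv1 UMIs in 35 of 71 TRGJ4 members and in 193 of 209 TRGJ2 members. The reverse order held in 26 of 71 TRGJ4 members, 8 of 209 TRGJ2 members and 560 of 660 TRGV1 cells. Summed, the TRGJ4 members had 486 CPM of Trgv2 and 370 CPM of Trgv1, and the TRGJ2 members 810 and 200 CPM, so that the V gene RNAs lay closer together in TRGJ4 members. The TRGJ4 contigs had a median of 8 receptor UMIs, against 13 for TRGJ2 in the same library. Over TRGJ2 members alone the counts of called genes stayed within 1.5 times in the comparisons with the other sort, with TRGV1 and TRGV4 cells and by delta V gene.

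CDR3 length hardly differed at its centre: the median was 42 nucleotides in both libraries, with a range of 30 to 45 in the tdTomato+ and 18 to 51 in the tdTomato- members. A length of 42 nucleotides was found in 19 of 31 tdTomato+ members (61.3%, 42.2 to 78.2%) and in 117 of 285 tdTomato- members (41.1%, 35.3 to 47.0%), intervals that overlapped. Among tdTomato- members 39 nucleotides was the commonest length with TRGJ4 (34 of 71) and 42 nucleotides with TRGJ2 (87 of 209). TRGV1 cells had 42 nucleotides in 339 of 660 cells, whereas TRGV4 cells most often had 45 nucleotides (366 of 903).

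The J genes were also compared by added bases. Matching was to the Trgv2 end, although most TRGJ4 members shared their CDR3 with TRGV1 cells, as given above. Bases that matched neither germline end numbered 3 in the median tdTomato+ TRGJ2 member (0 to 11), 2 in the median tdTomato- TRGJ4 member (0 to 8) and 3 in the median tdTomato- TRGJ2 member (0 to 14). No base at all had been added in 4 of 31 tdTomato+ members (12.9%) and, in the tdTomato- library, in 29 of 71 TRGJ4 members (40.8%) against 21 of 209 TRGJ2 members (10.0%). Of these 29 TRGJ4 cells 23 carried 1 of 2 CDR3s, and with 1 cell per CDR3 no base had been added in 6 of 36 TRGJ4 CDR3s (16.7%, 6.37 to 32.8%) against 10 of 127 TRGJ2 CDR3s (7.87%, 3.84 to 14.004%), intervals that overlapped. Exactly 1 base was added in 1 of 31 tdTomato+ (3.23%, 0.0816 to 16.7%) and 44 of 209 tdTomato- TRGJ2 members (21.1%, 15.7 to 27.2%), 15 of the 44 with the same CDR3. Exactly 4 bases were added in 10 of 31 (32.3%, 16.7 to 51.4%) and 46 of 209 (22.0%, 16.6 to 28.2%), and at both counts the intervals overlapped. The start of TRGJ2 was often left whole, in 18 of 31 tdTomato+ (58.1%) and 126 of 209 tdTomato- members (60.3%). Where a base had been added before such an uncut J, the base next to it was T in 15 of 17 tdTomato+ and 99 of 122 tdTomato- members. Where at least 2 had been added, they ended in AT in 13 of 16 and 66 of 93, as in both shared sequences printed above. Trgj2 itself begins with at, which reads the same on both strands.

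**Figure D1:**
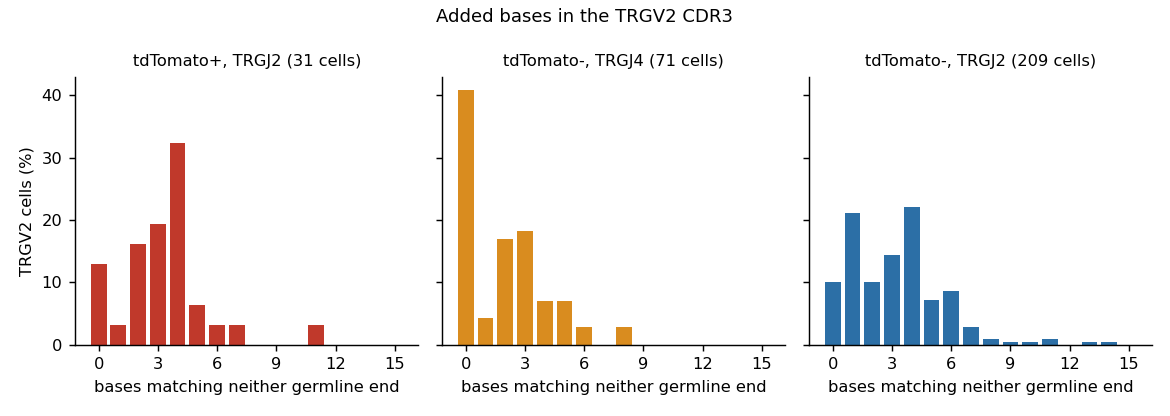
Percentage of TRGV2 cells (y axis) by the number of CDR3 bases that match neither germline end (x axis), for tdTomato+ TRGJ2 cells, tdTomato- TRGJ4 cells and tdTomato- TRGJ2 cells. The TRGJ4 cells stand highest at 0 added bases (29 of 71, of which 23 carry 1 of 2 CDR3s), and the tdTomato+ cells at 4 (10 of 31).

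TRGV2 junctions were diverse. The 31 tdTomato+ members had 27 distinct nucleotide CDR3s, of which 24 occurred in 1 cell and the commonest in 3. The 71 tdTomato- TRGJ4 members had 36, of which 29 occurred in 1 cell and the commonest in 14. The 209 tdTomato- TRGJ2 members had 127, of which 93 occurred in 1 cell and 34 in more, up to 15 cells. A pair of members drawn at random had the same CDR3 with a Simpson probability of 1.08% for tdTomato+ and 0.98% for tdTomato- members, lower than for TRGV1 cells (5.56 and 12.4%) and TRGV4 cells (16.5 and 22.4%). Within the tdTomato- library the value was 6.52% for TRGJ4 and 1.07% for TRGJ2 members. Of the 31 tdTomato+ members, 16 (51.6%, 33.1 to 69.8%) had a CDR3 also seen in a tdTomato- TRGV2 cell, and 31 of 285 tdTomato- members had one seen in a tdTomato+ TRGV2 cell.

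Whether the delta chain repeated with the gamma CDR3 could be read for 11 of the 41 repeated tdTomato- CDR3s of TRGJ2 or TRGJ4, those with a delta contig in at least 2 cells. Of these 11, 9 used TRGJ2, and in 7 of the 9 the delta chains were all different. The sequence held by 15 cells had 4 delta contigs, 1 with TRDV5 and 3 with TRDV2-2, all of different sequence. The same held for both such TRGJ4 CDR3s. In the remaining pair of TRGJ2 CDR3s every delta contig was the same TRDV5 sequence, so that both chains repeated, and their gamma and delta junctions are printed here for that reason, with capitals in the gamma junction as above.
Gamma, 5 cells: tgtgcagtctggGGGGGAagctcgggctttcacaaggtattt
Its delta, 4 of those cells: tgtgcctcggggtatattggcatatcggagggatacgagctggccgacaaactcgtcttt
Gamma, 4 cells: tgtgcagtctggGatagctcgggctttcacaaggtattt
Its delta, 2 of those cells: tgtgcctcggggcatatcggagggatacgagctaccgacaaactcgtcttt

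A delta contig was recovered in 4 of 31 tdTomato+ members (12.9%, 3.63 to 29.8%) and 76 of 285 tdTomato- members (26.7%, 21.6 to 32.2%), so pairing is known for a minority. All 4 delta contigs of tdTomato+ members were TRDV2-2. In the tdTomato- library TRDV5 took 30 of 76 (39.5%, 28.4 to 51.4%), TRDV2-2 40 (52.6%, 40.8 to 64.2%) and TRDV1 6 (7.89%). Delta use was also counted by gamma J gene. TRGJ4 members paired with TRDV5 in 2 of 17 (11.8%, 1.46 to 36.4%) and with TRDV2-2 in 12 (70.6%, 44.0 to 89.7%). TRGJ2 members paired with TRDV5 in 28 of 55 (50.9%, 37.1 to 64.6%) and with TRDV2-2 in 24 (43.6%, 30.3 to 57.7%). Counted by cell, the TRDV5 intervals of the J genes only just missed each other, ending at 36.4% and starting at 37.1%. The 28 TRGJ2 cells include 4 and 2 cells that repeat both chains. Shares with 1 cell per receptor were not computed, so no separation is read. TRGV1 cells, at 10 of 88 TRDV5 (11.4%, 5.59 to 19.9%), were near the TRGJ4 members, and TRGV4 cells, at 115 of 193 (59.6%, 52.3 to 66.6%), near the TRGJ2 members. The delta CDR3s of tdTomato- members spanned 36 to 75 nucleotides with a median of 54, and 60 of the 76 were distinct; 16 of the 30 TRDV5 ones had 51 nucleotides.

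**Figure D2:**
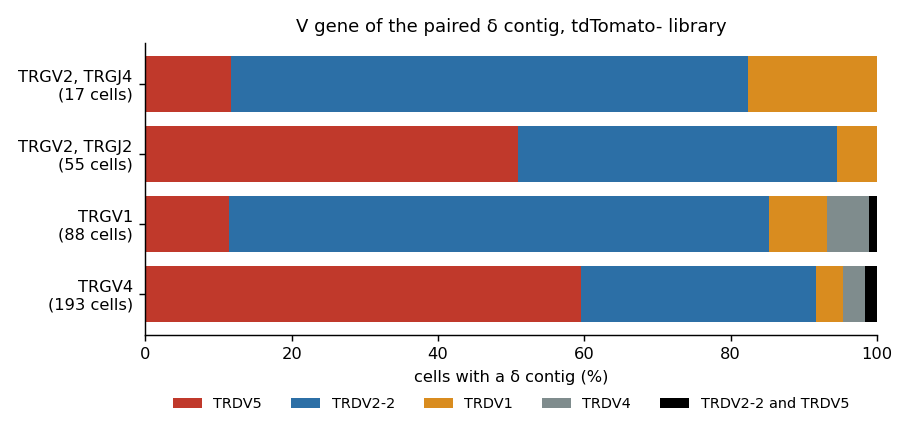
Percentage of tdTomato- cells with a delta contig (x axis) by delta V gene, one bar each for TRGV2 cells with TRGJ4, TRGV2 cells with TRGJ2, TRGV1 cells and TRGV4 cells; black marks cells with contigs of both TRDV2-2 and TRDV5. TRDV5 takes 2 of 17 in TRGV2 TRGJ4 cells, 28 of 55 in TRGV2 TRGJ2 cells, 10 of 88 in TRGV1 and 115 of 193 in TRGV4 cells.

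Members without a delta contig still contained delta V gene RNA. At least 1 UMI of a delta or dual-use V gene was found in 19 of 27 tdTomato+ and 168 of 209 tdTomato- members that lacked a TRD contig. Genes of the Trav15-dv6 family, which can join to the alpha or the delta chain, had a UMI in 18 of 31 tdTomato+ and 142 of 285 tdTomato- members, yet no delta contig of a member was called with one. Among tdTomato- cells the family was found less often in TRGV2 (49.8%) than in TRGV1 cells (465 of 660, 70.5%) and more often than in TRGV4 cells (213 of 903, 23.6%). Trdv5 had a UMI in 54 of 285 tdTomato- members.

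By transcripts of the constant segments Trdc (delta chain, chr14:54142851-54148868) and Trac (alpha chain, chr14:54220521-54224206) the libraries were close to each other. Trdc alone was detected in 16 of 31 tdTomato+ (51.6%, 33.1 to 69.8%) and 153 of 285 tdTomato- members (53.7%, 47.7 to 59.6%). Trac alone was detected in 4 tdTomato+ (12.9%) and 30 tdTomato- members (10.5%), both genes in 7 (22.6%) and 76 (26.7%), and neither in 4 and 26 (9.12%). The counts behind these classes were low, with a median of 3 Trdc UMIs per tdTomato+ member (0 to 12) and 2 per tdTomato- member (0 to 15). After each cell was thinned to 2000 UMIs, neither gene was left in 16 of 30 tdTomato+ and 147 of 284 tdTomato- members, with 1 cell of each library too shallow to enter. For background, B cells with at least 3 Cd79a UMIs, Ms4a1 and no Cd3e were used, a condition that also removes droplets with T cell RNA: Trdc was seen in 1 of 288 tdTomato+ and 6 of 321 tdTomato- B cells, and Trac in 3 and 2, at median depths of 6600 and 5821 UMIs. A wider B cell set (449 and 891 cells with at least 3 UMIs over 4 B cell genes together and no TRG or TRD contig, without the conditions on Cd79a, Ms4a1 and Cd3e) had Trdc in 2.45 and 40.3% of cells and Cd3e in 16.04 and 54.0%, so in the tdTomato- library it held T cell transcripts.

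**Figure D3:**
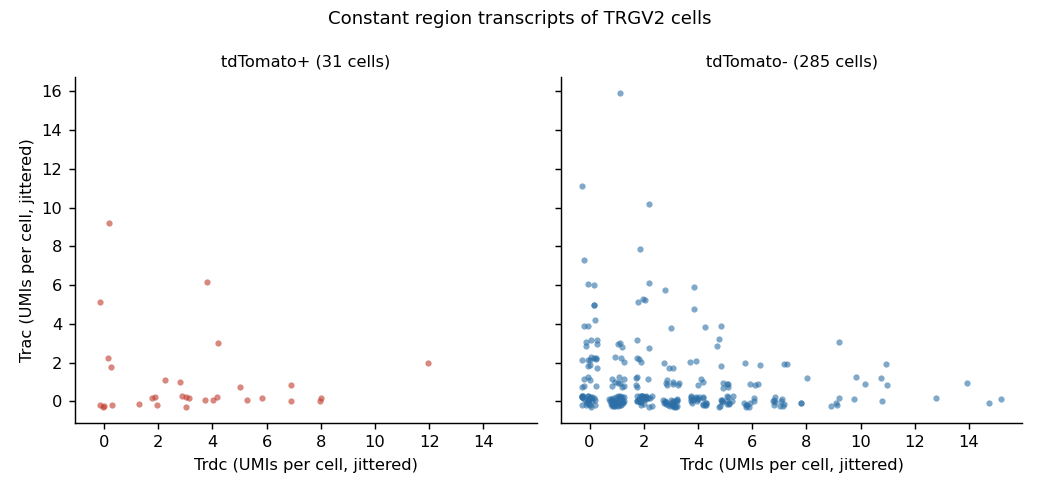
Trdc UMIs (x axis) against Trac UMIs (y axis) of each TRGV2 cell in the tdTomato+ and tdTomato- library, with points spread slightly so that cells with equal counts can be told apart. Most cells of both libraries lie on the Trdc axis or the Trac axis; 7 of 31 and 76 of 285 have both.

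The receptor evidence went with the class. Among tdTomato- members a delta contig was recovered in 47 of 153 Trdc-only cells (30.7%, 23.5 to 38.7%) and 2 of 30 Trac-only cells (6.67%, 0.818 to 22.1%). At least 5 UMIs of a single Trbv gene (a beta chain V segment) were found in 24 of 153 Trdc-only cells (15.7%, 10.3 to 22.4%) and 20 of 30 Trac-only cells (66.7%, 47.2 to 82.7%), and in 36 of the 76 with both. The median number of added bases was 2 in Trdc-only cells (0 to 15) and 4 in Trac-only cells (0 to 14), so the ranges overlapped. The classes also differed in J gene use, and these medians are not given within 1 J gene or with 1 cell per CDR3. TRGJ4 members were rarely Trac-only, in 1 of 71, against 26 of 209 TRGJ2 members.

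Within the TRGV2 cells expression split by the delta partner. Of the tdTomato- members, 30 had a TRDV5 and 40 a TRDV2-2 contig, with 275620 and 357468 UMIs in all and median depths of 7884 and 8000 UMIs. The IL-17 genes stood far higher with TRDV5. Il17a, the cytokine itself, had 773 UMIs (2805 CPM) in TRDV5-paired members and 3 UMIs (8.39 CPM) in TRDV2-2-paired members, a log2 ratio of 8.16 with a counting interval of 6.83 to 10.67. It was detected in 10 of 30 TRDV5-paired and 1 of 40 TRDV2-2-paired members and in 1 of 321 B cells of the library. The positive TRDV5-paired cells had 5 to 151 UMIs with a median of 92.5, and the richest held 19.5% of the UMIs, so the level rested on 33.3% of the cells. From the mean of per-cell CPM the log2 ratio was 5.70. With 1 cell per CDR3 it was 10.71, and over TRGJ2 members only it was 10.51. Both settings left out the 1 positive TRDV2-2-paired cell, so that group was at 0. The size of these ratios then depends on the counts added before division. They keep the direction and do not show a larger difference than the main ratio. The cells rich in Il17a were not copies of a single receptor: the 11 tdTomato- members with at least 10 Il17a UMIs had 11 distinct gamma CDR3s, and all 9 of them with a delta contig had TRDV5.

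The other genes of the IL-17 program list were read in the same way. A gene was called here at 2-fold and at least 50 CPM in 1 group; over all genes 8.35% of 4167 were higher and 4.99% lower in TRDV5-paired members. Of the 11 IL-17 program genes 10 reached 50 CPM and all 10 were higher; 9 of them reached it in TRDV5-paired members only, which fixes their direction, so the count is a description. The chemokine receptor Ccr6 was detected in 14 of 30 TRDV5-paired members at 123 CPM and in none of the TRDV2-2-paired ones, at least 14.7-fold higher, and the tyrosine kinase Blk (345 CPM, 14 cells) was at least 41.1-fold higher, again against 0. Il23r and Il1r1, receptors for cytokines that drive IL-17 production, each had 210 CPM against 0, at least 25.1-fold higher, and Il17f had 432 CPM in 7 cells against 0, at least 51.4-fold higher. Maf, a transcription factor of IL-17-producing cells, had 167 CPM in TRDV5-paired and 13.99 CPM in TRDV2-2-paired members (log2 ratio 3.45), and Ccr2, a chemokine receptor, 221 and 53.2 CPM (2.03). The scavenger receptor genes Scart2 (454 CPM, 14 cells) and Scart1 (290 CPM, 4 cells) were also at 0 in TRDV2-2-paired members, at least 54.0-fold and 34.6-fold higher.

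**Figure D4:**
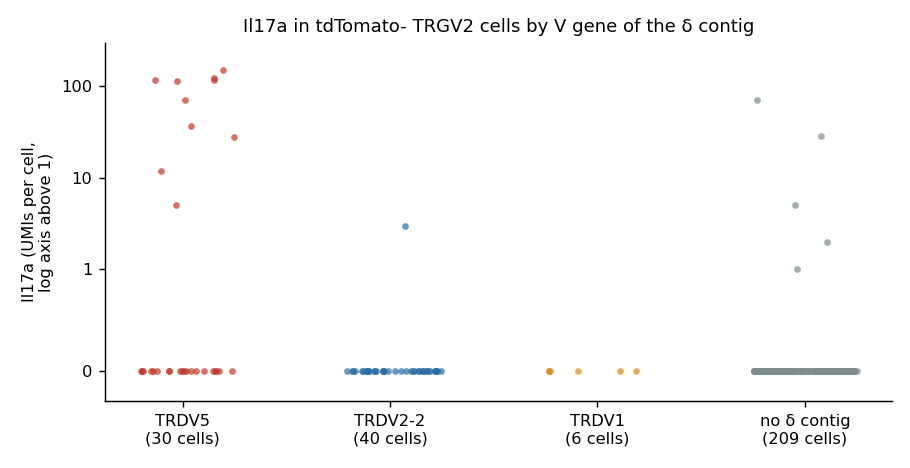
Il17a UMIs per cell (y axis, logarithmic above 1) in tdTomato- TRGV2 cells by the V gene of the delta contig (x axis), each point a cell, spread sideways. Of the TRDV5-paired cells 10 of 30 lie above 0, up to 151 UMIs, against 1 of 40 TRDV2-2-paired cells, at 3 UMIs.

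Il17a was set against the delta V gene in cells of the other gamma chains in the same library too. At least 10 Il17a UMIs were found in 9 of 30 TRGV2 cells with TRDV5 (30.0%, 14.7 to 49.4%), in 0 of 10 TRGV1 cells with TRDV5, whose Il17a sum was 0, and in 74 of 115 TRGV4 cells with TRDV5 (64.3%, 54.9 to 73.1%). With TRDV2-2 the counts were 0 of 40 TRGV2, 0 of 65 TRGV1 and 4 of 62 TRGV4 cells (6.45%, 1.79 to 15.7%). Counted by cell, TRGV2 cells with TRDV5 lay below TRGV4 cells with TRDV5, with intervals that did not overlap. These intervals treat each cell as independent, although TRGV4 CDR3s repeat more often (Simpson probability 22.4% against 0.98% in TRGV2 cells). Shares with 1 cell per CDR3 were not computed here, so the difference may rest on repeated receptors. Without a delta contig 2 of 209 TRGV2 and 8 of 710 TRGV4 cells had that many. In the tdTomato+ library Il17a was at 0 in all 31 TRGV2 cells. Only 4 of them had a delta contig, each TRDV2-2, and the delta V gene of the other 27 is not known.

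TRDV2-2-paired members were the higher ones for several genes of interferon-gamma-producing cells. Ifng had 327 CPM in TRDV5-paired and 901 CPM in TRDV2-2-paired members (log2 ratio -1.46, -1.82 to -1.12), with a UMI in 15 of 30 and 29 of 40 cells, and the ranges of 0 to 24 and 0 to 63 UMIs per cell overlapped. Cd27, a costimulatory receptor that marks such cells, had 79.8 and 210 CPM (-1.37) and was detected in 8 of 30 and 31 of 40. Klrc1, a natural killer receptor, had 207 and 666 CPM (-1.68), the death ligand Fasl 127 and 352 CPM (-1.46), and the chemokine receptor Cxcr3 112 and 263 CPM (-1.21). The type 1 program had 11 genes tested, of which 4 were lower and 1 (Il18r1) higher in TRDV5-paired members, and the natural killer receptor list had 12, of which 5 were lower. In these lists 1 type 1 gene and 2 natural killer receptor genes reached 50 CPM in TRDV2-2-paired members only, which fixes their direction. Gm2682 differed in the share of cells as well as in level, at 123 and 688 CPM (-2.46), detected in 33.3% of TRDV5-paired and 90% of TRDV2-2-paired cells and in 2.18% of B cells. Tbx21, the regulator of the type 1 program, was not called, with 196 and 271 CPM (-0.46, -0.98 to 0.02), and neither was granzyme gene Gzmb with 3051 and 2680 CPM. Gzma, another granzyme gene, was higher in TRDV5-paired members at 2681 and 1217 CPM (1.14), so that of 6 cytotoxicity genes tested 1 was higher and 1, Fasl, lower. With 1 cell per CDR3 the log2 ratio of Gzma was 0.82, not past 2-fold, so its call depended on the setting.
The lists of innate-like and tissue-resident T cells held genes of both directions. Of 6 innate-like and type 2 genes tested 2 were higher and 1 lower with TRDV5. Of 10 liver residency genes 3 were higher and 1 lower, and of 8 genes of recirculation and naive state 1 was higher and 2 lower. In the innate-like list 3 genes reached 50 CPM in TRDV5-paired members only and 1 in TRDV2-2-paired members only. In each of the other 2 lists these numbers were 1 and 2. Reaching it in 1 group only fixes the direction, so the counts are a description. Zbtb16, a transcription factor of innate-like T cells, had 112 CPM in TRDV5-paired and 28.0 CPM in TRDV2-2-paired members (log2 ratio 1.96), the costimulator Icos 261 and 41.96 CPM (2.60), and the IL-7 receptor gene Il7r 595 and 196 CPM (1.60). Itgae, the integrin chain of epithelial-resident T cells, had 138 CPM against 0, at least 16.4-fold higher. Lower with TRDV5 were Id3, a regulator induced by receptor signalling in gamma-delta T cells (18.1 and 69.9 CPM, -1.84), Ahr, a ligand-activated transcription factor (25.4 and 134 CPM, -2.32), and Lef1, a transcription factor of naive T cells (72.6 and 162 CPM, -1.14). The macrophage genes Lyz2 and Cd68 were lower, but nearly all of their UMIs came from 1 TRDV2-2-paired cell.

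Between Trdc-only and Trac-only tdTomato- members (153 and 30 cells), 4.11% of 3970 genes were higher and 5.69% lower in Trdc-only cells. Of 7 cytotoxicity genes tested 3 were higher (Prf1, Gzma and Gzmb) and 1 lower (Gzmk, 14.7 and 130 CPM, log2 ratio -3.12). Gzmk reached 50 CPM in Trac-only cells only, which fixes its direction. Gzma, a granzyme, had 2697 CPM in Trdc-only and 459 CPM in Trac-only cells (log2 ratio 2.55), with a UMI in 82 of 153 and 10 of 30 cells. The signalling adaptors Tyrobp (974 and 169 CPM, 2.52) and Fcer1g (1149 and 208 CPM, 2.46) and the natural killer receptors Ncr1 (300 and 51.9 CPM, 2.50) and Klra5 (589 and 130 CPM, 2.17) were higher in Trdc-only cells as well. Id3 had 111 and 10.4 CPM (3.26). Among 12 natural killer receptor genes tested 4 were higher and none lower, and 1 of the 12 reached 50 CPM in Trdc-only cells only, which fixes its direction.
Of 8 alpha-beta T cell markers tested 5 were lower in Trdc-only cells, among them Trac, which set the classes, and 1 was higher, the beta chain constant segment Trbc1 (216 and 83.0 CPM, log2 ratio 1.36). Of these 8 markers 3 reached 50 CPM in Trac-only cells only, which fixes their direction. Cd5, a brake on receptor signalling, had 51.0 CPM in Trdc-only and 252 CPM in Trac-only cells (log2 ratio -2.30) and was detected in 23.5 and 60% of cells. Cd6 had 33.2 and 213 CPM (-2.67) with 15.7 and 63.3% of cells, beside 0.312% of B cells, and Themis, needed for alpha-beta T cell selection, 83.5 and 197 CPM (-1.24). Of the 8 cell cycle genes 6 reached 50 CPM in Trac-only cells only, which fixes their direction, so no count over the list is read; Mki67 had 38.6 and 337 CPM and was found in 4.58 and 16.7% of cells, beside 5.30% of B cells. The Trac-only sums are those of few cells: 52.4% of their Cd8b1 UMIs and 38.5% of their Mki67 UMIs came from 1 cell. Trdc and Trac set the classes and are not read as results.

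Compared with TRGV1 cells of the same library, TRGV2 cells differed in few genes, with 0.647% of 3708 genes higher and 0.566% lower. Il17a led the higher side, with 883 UMIs (315 CPM) in 16 of 285 TRGV2 cells and 7 UMIs (1.06 CPM) in 6 of 660 TRGV1 cells, a log2 ratio of 8.11. Among the other genes higher in TRGV2 cells, Cd6 had 75.9 CPM in TRGV2 and 24.99 CPM in TRGV1 cells (1.60), Cd5 101 and 43.9 CPM (1.20), Icos 126 and 57.7 CPM (1.12), Il7r 176 and 86.9 CPM (1.02) and Ly6c2, a surface protein of memory cells, 316 and 104 CPM (1.60). Trgc2, the constant segment of the Trgj2 cassette, had 134 and 39.8 CPM (1.75). Cytotoxic and type 1 genes were not called: Gzmb had 2943 and 4472 CPM (-0.60), Gzma 2209 and 3163 CPM (-0.52) and Ifng 755 and 801 CPM (-0.08). Lower in TRGV2 cells were the macrophage genes C1qa, C1qb and C1qc and haemoglobin genes, markers of other cell types.

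Against TRGV4 cells 0.482% of 3737 genes were higher and 1.85% lower in TRGV2 cells. Cd28, the main costimulatory receptor, had 162 CPM in TRGV2 and 55.0 CPM in TRGV4 cells (log2 ratio 1.56), and Cd40lg, a ligand through which T cells help other cells, 51.7 and 13.0 CPM (1.99). Il17a was lower, with 315 CPM in TRGV2 and 756 CPM in TRGV4 cells (-1.26) and a UMI in 5.61 and 11.1% of cells, as was Blk (37.8 and 135 CPM, -1.83). The Il17a ratio was -0.95 over TRGJ2 members, -0.67 from the mean of per-cell CPM and -2.46 with 1 cell per CDR3, so its call depended on the setting. Klrh1, a killer lectin-like receptor gene, was detected in 9.82% of TRGV2 and 44.1% of TRGV4 cells (53.1 and 188 CPM, -1.82), and Mki67, a gene of dividing cells, in 9.47 and 24.8% (110 and 294 CPM, -1.41). Gzma had 2209 and 4933 CPM (-1.16). With 1 cell per CDR3 the log2 ratios were -0.50 for Klrh1, -0.30 for Mki67 and -0.24 for Gzma, none past 2-fold. In the smaller tdTomato+ library 1.99% of genes were higher and 3.43% lower in TRGV2 than in TRGV1 cells, and 2.5% higher and 4.71% lower than in TRGV4 cells.

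By J gene the TRGV2 cells of the tdTomato- library were close to each other, with 0.677% of 3842 genes higher and 0.651% lower in TRGJ4 than in TRGJ2 members. Few of the higher calls remained without the richest cell of each gene, as given in the closing section. Klrh1 had 124 CPM in TRGJ4 and 33.9 CPM in TRGJ2 members (log2 ratio 1.87, and 1.65 without the richest cells) and was found in 16.9 and 7.66% of cells. Sult2b1, a sulfotransferase gene, had 146 and 69.7 CPM (1.07). Lower in TRGJ4 members were Gpr183, a receptor for oxysterols (36.0 and 95.3 CPM, -1.38), Ctla4, an inhibitory receptor (34.3 and 103 CPM, -1.56), and Il17a (63.8 and 392.2 CPM, -2.60), whose share of positive cells was nearly equal at 5.63 and 5.74%. Of the 39 Il17a UMIs in TRGJ4 members 74.4% came from 1 cell. Gzma and Gzmb were not called, with 2458 and 2182 CPM and with 3775 and 2726 CPM.

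Between the sorts the TRGV2 cells differed in granule and natural killer genes, which were lower in tdTomato+ members. The natural killer cell markers summed to 800 CPM in tdTomato+ and 2394 CPM in tdTomato- members. TRGV1 cells had 1175 and 2898 CPM and TRGV4 cells 1708 and 2279 CPM, so the direction was not particular to TRGV2 cells. The T cell receptor complex genes summed to 2068 and 4127 CPM in TRGV2, 2256 and 4293 CPM in TRGV1 and 2588 and 4135 CPM in TRGV4 cells. Over 4333 genes 10.6% were higher and 3.88% lower in tdTomato+ members. Gzma had 48 UMIs (96.5 CPM) in 5 of 31 tdTomato+ members and 6200 UMIs (2209 CPM) in 151 of 285 tdTomato- members, a log2 ratio of -4.50 (-4.96 to -4.11), and 79.2% of the tdTomato+ UMIs came from 1 cell, without which the log2 ratio (leaving out the richest cell of each library) was -6.66. The median cell had 0 and 1 Gzma UMIs, and 5 of 288 tdTomato+ and 26 of 321 tdTomato- B cells had any. Gzmb had 352 CPM in 12 of 31 and 2943 CPM in 204 of 285 cells (-3.06), with 0 UMIs in the median tdTomato+ and 18 in the median tdTomato- member and up to 69 and 195, so the groups overlapped. The pore-forming protein gene Prf1 had 36.2 and 113 CPM (-1.61), Fasl 76.4 and 239 CPM (-1.63) and the granule gene Nkg7 772 and 1806 CPM (-1.22). All 7 cytotoxicity genes tested, of 9 listed, were lower in tdTomato+ members, and 2 of them reached 50 CPM in the tdTomato- members only. Of 11 natural killer receptor genes tested 8 were lower, among them Klre1 (96.5 and 538 CPM, -2.47), Klra5 (88.4 and 475 CPM, -2.41), Ncr1 (46.2 and 202 CPM, -2.10) and Tyrobp (171 and 754 CPM, -2.13). Of these 11 genes 3, Ncr1 among them, reached 50 CPM in tdTomato- members only, which fixes their direction.
Other T cell genes were lower too. Of 11 type 1 program genes tested 2 were lower and none higher in tdTomato+ members. One of them, Ccl5, a chemokine gene of effector cells, had 2172 CPM in tdTomato+ and 8903 CPM in tdTomato- members (log2 ratio -2.03), Rgs1, a marker of tissue residency, 605 and 2517 CPM (-2.05), and Cd8a 52.2 and 300 CPM (-2.49). Il17a was at 0 in tdTomato+ members and at 315 CPM in tdTomato- members, at least 52.2-fold lower by UMI counts alone. It had a UMI in 0 of 31 and 16 of 285 cells (5.61%). At that share 31 cells are too few to show a difference in positive cells, so none is read. The receptor subunit genes Cd3e (657 and 1486 CPM, -1.18) and Cd3g (673 and 1614 CPM, -1.26) were past 2-fold too. Ifng was not called, at 529 and 755 CPM (-0.51), with 52.5% of the tdTomato+ UMIs in 1 cell.

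All 10 endothelial markers reached 50 CPM in tdTomato+ members only, which fixes their direction. Endothelial RNA was not particular to TRGV2 cells: these markers summed to 8436 CPM in tdTomato+ TRGV1 and 10112 CPM in tdTomato+ TRGV4 cells. Id3 (494 and 97.97 CPM, log2 ratio 2.34), Igfbp4 (273 and 16.4 CPM, 4.05) and Maf (203 and 49.5 CPM, 2.04) were higher in the sums over all members. Over the 15 tdTomato+ members with at most 0.1% endothelial UMIs they had 104, 31.1 and 41.4 CPM, and their log2 ratios were 0.11, 1.02 and -0.17. Over the other 16 they had 742, 427 and 305 CPM. Of the genes already called lower over all members, 3 of 7 cytotoxicity genes and 5 of 8 natural killer receptor genes were still past 2-fold lower in those 15. Among them were Gzma with 36.3 CPM (-5.83), Gzmb with 689 CPM (-2.09), Klre1 with 114 CPM (-2.21) and Tyrobp with 109 CPM (-2.76). No share over all genes is given beside these counts, so they are a description. The log2 ratios of Prf1 (-0.81), Nkg7 (-0.83), Klrd1 (-0.67) and Klrc1 (-0.09) were not past 2-fold, and Cd3e (855 CPM, -0.79) and Cd3g (-0.89) were not either. The part of endothelial RNA in the other differences was not tested, and batch and sort cannot be told apart here either.

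**Figure D5:**
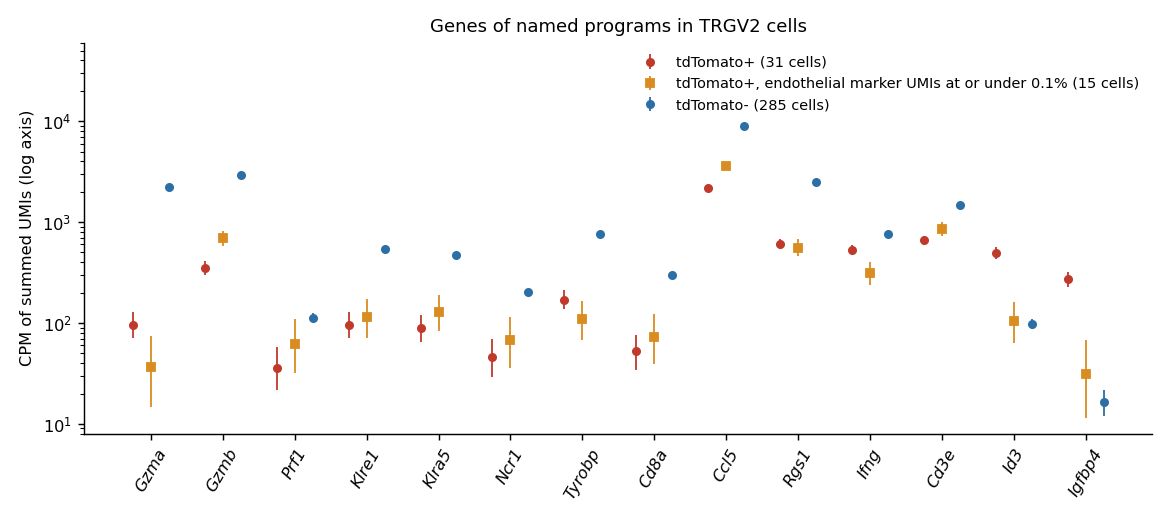
CPM (y axis, log scale) of named genes in tdTomato+ members, tdTomato+ members with at most 0.1% endothelial UMIs, and tdTomato- members; bars are exact Poisson intervals, which cover counting error only. Gzma, Gzmb and Klre1 lie lower in both tdTomato+ sets, and Id3 and Igfbp4 lie at 104 and 31.1 CPM in the set low in endothelial RNA.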

How the data were processed

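The authors deposited 10x Chromium 5' matrices of UMI counts (Cell Ranger 10.0.0 per the matrix header, mm10 per the submitters' notes) and lists of assembled receptor contigs with V, J and C calls, CDR3s and UMI counts. All 150 tdTomato+ and 3018 tdTomato- contigs listed were productive and of high confidence; the cell filter removed no member. No doublet caller was run, and 0 columns belonged to other series. Members, lists and comparisons were chosen with earlier results of these data known, and the splits by J gene and by delta V gene, the stricter B cell set and the counts without CDR3s shared with TRGV1 cells after values were seen.

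UMIs were summed per group, scaled to CPM over 33696 genes and compared as log2 ratios with 0.5 counts added; a gene at 0 was set against a floor of 3 counts. Named were receptor genes, list members, and the 10 largest ratios each way past 2-fold and 50 CPM in genes seen in at least 10% of cells. Bases were assigned to V or J by longest match to the GENCODE ends. The tdTomato+ library had 4 Trac-only members, so classes were compared in tdTomato- alone. Scripts (Python 3.11.15, pandas 2.3.3, scipy 1.17.1, matplotlib 3.10.9) were tested on simulated data. Some genes of the lists are not reported here.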

Additional observations from a re-analysis of the deposited data

How the results depend on the processing

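No paired analysis was possible because each sort has 1 library. Of 96 counts of called genes under another setting 75 stayed within 1.5 times, of 1528 log2 ratios 1228 stayed close, 283 moved and 17 reversed, and of 78 shares 63 stayed close; the cause was not tested. With 1 cell per CDR3, tdTomato- members with no added base fell to 9.64%, against 17.5%. Classes from at least 2 UMIs gave 10.9% both and 28.4% neither in tdTomato- members. With Trac, Trbc1 and Trbc2 together for the alpha-beta side, tdTomato+ shares were 0% Trdc-only, 74.2% both and 0% neither, and tdTomato- shares 2.46% Trdc-only, 18.9% Trac-only, 77.9% both and 0.702% neither. Thinning gave 3.33% both and 53.3% neither in tdTomato+, and 38.0% Trdc-only, 2.46% both and 51.8% neither in tdTomato- members.

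Between the sorts (459 higher, 168 lower) low endothelial RNA left 291 higher, and leaving out each gene's richest cell 289 higher and 301 lower. For TRGV2 over TRGV1 in tdTomato- cells (21 lower) the mean of per-cell CPM gave 9 lower and cells with Trdc and no Trac 12; over TRGV4 (18 higher, 69 lower) these gave 32 lower, and 30 higher with 28 lower. In the tdTomato+ library TRGV2 over TRGV1 had 91 higher and 157 lower, with 152 higher by the mean, 269 and 529 with Trdc and no Trac, 154 higher with 1 cell per CDR3 and 47 higher without the richest cell; over TRGV4 it had 113 higher and 213 lower, with 189 higher by the mean, 322 and 444 with Trdc and no Trac, and 72 higher without the richest cell. For Trdc-only over Trac-only (163 higher, 226 lower) the mean gave 136 lower and leaving out the richest cell 288 higher and 94 lower. For TRGJ4 over TRGJ2 (26 higher) the latter left 3. The split by delta V gene gave 260 to 446 higher and 207 to 252 lower genes.

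Reversed log2 ratios were, with low endothelial RNA, Fcgr2b -0.82 and Maf -0.17; over TRGV4 with Trdc and no Trac, C1qa 0.58, C1qb 0.17 and C1qc 0.50; with 1 cell per CDR3, Birc5 0.85, Cenpa 0.76, Fabp5 1.16 and Tpx2 1.01 over TRGV1, and Gzmk 0.86, Top2a 0.22 and Tpx2 0.0046 over TRGV4; in Trdc-only over Trac-only cells from at least 2 UMIs, Lyz2 -0.27; without the richest cell, H1f3 -0.080 and Lyz2 -3.34 by J gene, and Cd68 0.38 and H2-Eb1 0.38 by delta V gene. The tdTomato+ values rest on 31 cells and 4 delta contigs.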
